A study of Mus musculus with 20 samples.

Results

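White adipocytes store energy as triglyceride and secrete hormones, and the 36 genes described here cover both tasks. They were chosen by name: genes of fatty acid synthesis, triglyceride assembly, lipid droplets and lipolysis, uptake and transport, adipokines, and the regulators of these programmes. The choice was made with earlier results of these data known. Of the 36, 33 had a probe set annotated to that symbol alone, out of 18194 such genes on the array, and each gene was read from its probe set with the highest mean signal. Plin1, Acsl1 and Cfd had no such probe set and were not analysed here. Of the 33, 32 passed the minimum mean signal of 300 and were tested among 13595 genes, and Aqp7 did not pass.

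Mouse flank tissue was profiled on 20 single-colour Affymetrix arrays after Ad-VEGF-A164, an adenoviral vector that makes infected cells produce an isoform of vascular endothelial growth factor A. The groups were flank labelled as control at day 0 (5 arrays, A to E), and flank taken 5 days (4 arrays, B to E), 20 days (5 arrays) and 60 days (5 arrays) after Ad-VEGF-A164. A further array was titled as day 5 A but carried the source name of the day 0 control, and it entered no comparison. No label used here gives strain, age, sex or vector dose, no empty vector is named, and all controls were of day 0, so effects of VEGF-A, vector, injection and harvest time cannot be told apart. The labels do not say that arrays came from separate animals, so a p-value reflects the spread among these arrays alone, which may be technical. The number of arrays limits the precision.

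In white fat, citrate from glucose is turned into fatty acids in the cytosol, these are esterified on a glycerol backbone, and the triglyceride is kept in a droplet coated with perilipins until lipases release it. Fatty acids also arrive from the blood, where lipoprotein lipase frees them from lipoproteins. PPARG and C/EBP alpha drive the adipocyte programme, while SREBP-1 and ChREBP (the product of Mlxipl) switch on the lipogenic enzymes in response to insulin and glucose.

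The label of the vector was checked with Vegfa, whose signal ranged over 66.5 to 467 in control, 3928 to 9410.0 on day 5, 7128 to 13514 on day 20 and 219 to 1076 on day 60. The tissue held more than fat. The summed signal of 8 endothelial markers ranged over 11103 to 16716 in control, 49580 to 60194 on day 5, 38316 to 62219 on day 20 and 12222 to 21919 on day 60. The sum of 10 mammary and luminal epithelial markers ranged over 45989 to 56565, 5502 to 10089, 3112 to 8372 and 9617 to 51832 in the same order. The sum of 7 brown fat markers stood at 103811 in control array A, where Ucp1 read 43788, against 18201 to 24318 in the other 4 controls. Actb probe sets at the 3′ and 5′ ends gave a ratio, which grows as RNA breaks down, of 7.10 ± 1.89 in the 5 controls (SD here and after), 4.82 ± 1.96 in the 4 arrays of day 5, 4.48 ± 1.84 in the 5 of day 20 and 8.82 ± 4.24 in the 5 of day 60. It reached 14.0 in day 60 array A.

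On day 5 and again on day 20, most of the tested members stood below control. By class medians the day 5 log2 change was -2.51 in fatty acid synthesis, -2.27 in triglyceride assembly, -1.84 in droplet and lipolysis genes, -0.42 in uptake and transport, -2.38 in adipokines and -1.06 in regulators. Of the 32 tested members, 26 were called lower and 1 higher on day 5 against control, at a limma adjusted p under 0.05 over all tested genes. Over all tested genes, 17.5% were called lower and 16.8% higher in that comparison. Day 20 against control gave 26 members lower and 1 higher, beside 14.5% and 15.6% of all tested genes. Fabp4, Cd36, Trarg1, Angptl4 and Pparg were called on neither day, and the member called higher was Scarb1 on both. The members' median log2 change was -1.81 on day 5 and -2.01 on day 20, against -0.07 and -0.06 over all tested genes. In bulk tissue, fewer adipocytes, less of these RNAs per adipocyte and a changed share of other tissue cannot be told apart. All 8 skeletal muscle markers had a negative log2 change on both days, with medians of -1.34 and -0.80. Their part was not tested. Both comparisons use the same 5 control arrays, and the members were chosen with earlier results of these data known. On day 5, none of the 27 called members overlapped with control over the arrays, and 76.0% of all called genes were apart in this way. On day 20, 4 of the 27 overlapped, and 65.8% of all called genes were apart.

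By day 60 the picture was mixed. Against control 8 members were called lower and none higher by limma, beside 0.765% and 0.368% of all tested genes. At an unadjusted p under 0.05, 29 members were lower and 0 higher, beside 7.50% and 8.36% of all tested genes. All 32 tested members had a negative log2 change, with a median of -1.22 against 0.01 over all tested genes. Mammary epithelial markers were lower together with the members, with 7 of 10 called lower on day 5, 7 of 10 on day 20 and 1 of 10 on day 60. Of 9 tested further white adipocyte markers that are no members, 7 were called lower on day 5, 6 on day 20 and 2 on day 60. On day 20, 2 of the 9 had a positive log2 change without a call. Among them was Aoc3, which read 13738 to 15399 on day 20 against 7795 to 13727 in control. Of 7 tested macrophage markers 5 were called higher on day 5, and on day 20 2 were higher and 1 lower. Of 7 brown fat markers 5 were called lower on day 5 and 3 on day 20, and of 8 skeletal muscle markers 3 were lower on day 5. Of 6 tested sebaceous gland markers 2 were called lower on day 5 and 4 on day 20, and of 8 epidermal markers 3 were lower on day 20. Of 9 tested preadipocyte and fibroblast markers 4 were lower and 2 higher on day 5, and 3 lower and 1 higher on day 20. No marker on these lists was under a signal of 300 in every array. Their part in the members' changes was not tested.

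**Figure D1:**
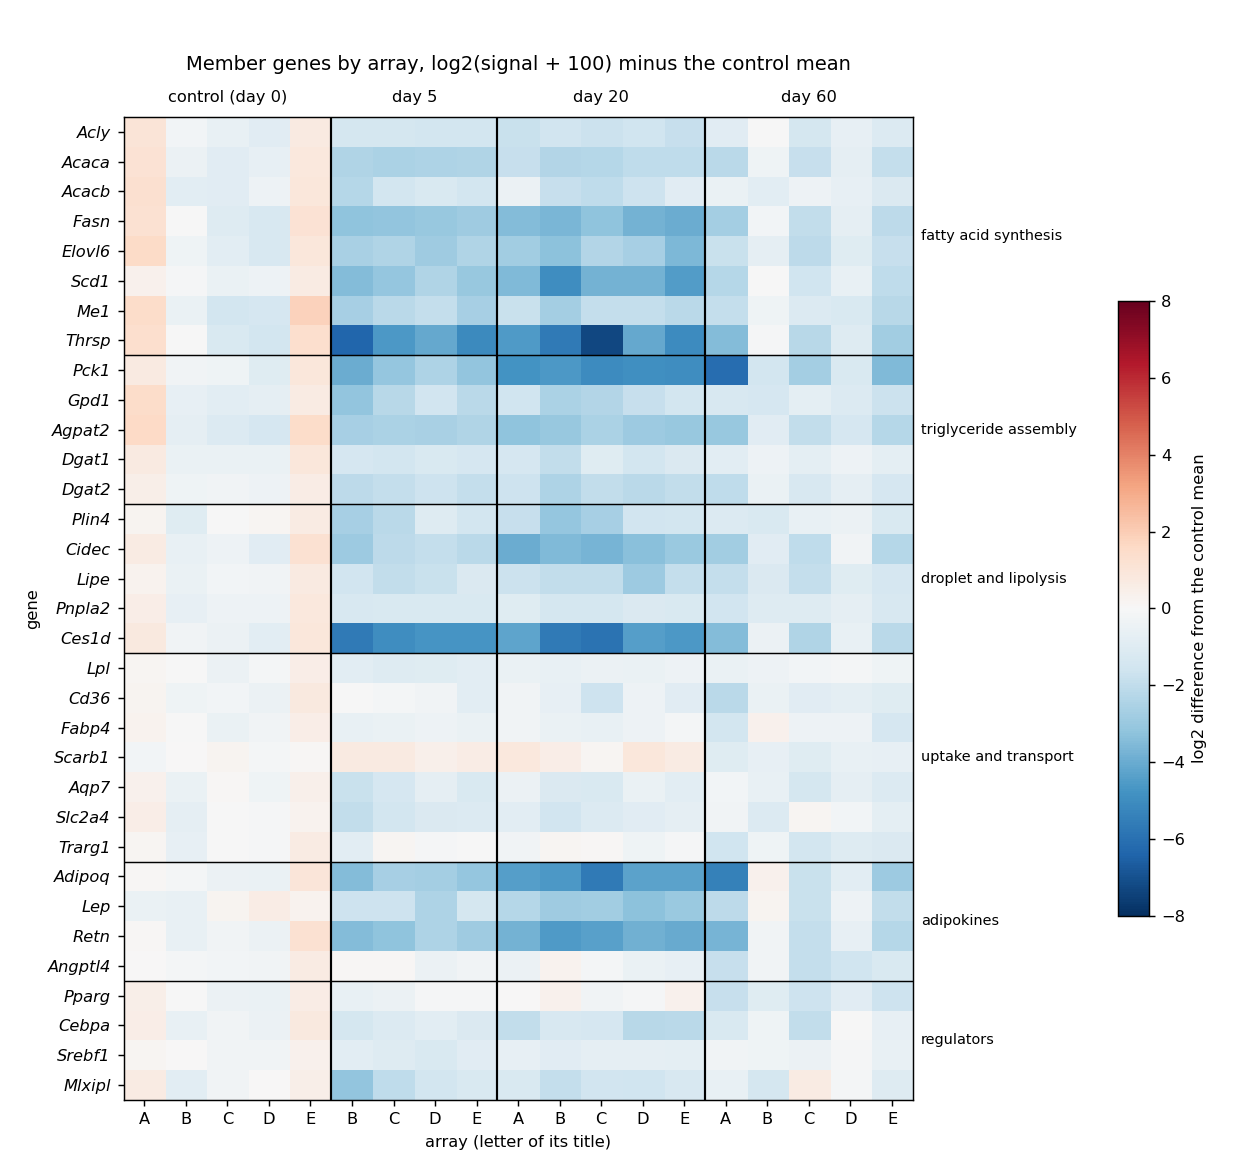
Each of the 33 members (rows, grouped by role) in each of the 19 arrays (columns, by day) as log2(signal + 100) minus the control mean of the gene. Day 5 and day 20 arrays are blue for most members of the first 3 groups and for Adipoq, Lep and Retn, while control arrays A and E are the reddest controls and day 60 arrays B and D hold the highest values of their group in 21 of the 33 members.

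**Figure D2:**
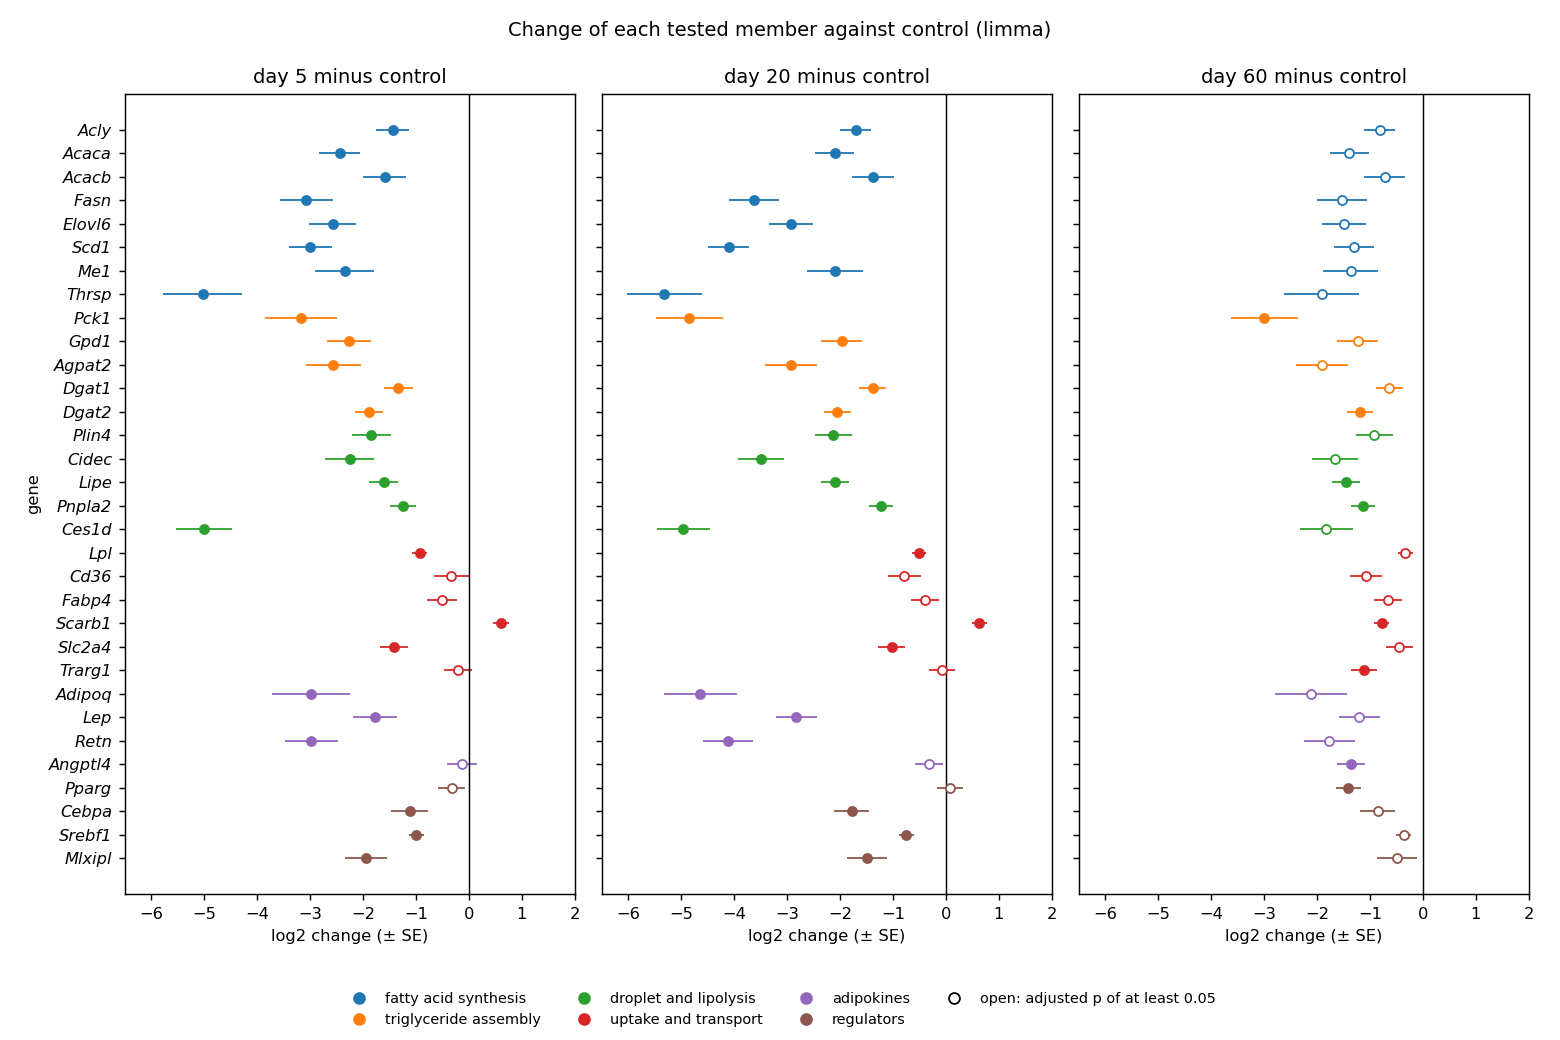
Log2 change against control with its standard error for the 32 tested members on days 5, 20 and 60; filled points have a limma adjusted p under 0.05. On days 5 and 20, 26 filled points lie left of 0 and Scarb1 alone lies filled to the right, and on day 60 8 points are filled, all on the left.

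All 8 members of fatty acid synthesis fell on day 5 and on day 20, with a median log2 change of -2.51 and -2.52. Folds were taken after 100 was added to each signal, so those of dim genes are too small. Thrsp, which encodes Spot 14, a small protein that supports lipogenesis, gave signals of 75749, 29265, 13123, 10856 and 76976 in control arrays A to E, 268, 1160.1, 1699 and 779 in day 5 arrays B to E, 1225, 501, 91.0, 1678 and 817 in day 20 arrays A to E and 2662, 28501, 6499.9, 14464 and 4242 in day 60 arrays A to E. Every day 5 and day 20 array was below every control, and day 60 arrays B and D lay within the control range while A, C and E lay below it. Thrsp was 32.6-fold lower on day 5 (log2 change -5.03, SE 0.75, adjusted p = 4.51e-05) and 39.8-fold lower on day 20 (log2 change -5.32, SE 0.71, adjusted p = 1.37e-05). On day 60 its change did not pass (log2 change -1.91, SE 0.71, adjusted p = 0.179).

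Fasn encodes fatty acid synthase, the enzyme complex that builds palmitate. It read 54659.6, 22392, 11402, 9509 and 52292 in control arrays A to E, 2415, 2486, 2723 and 3194 in day 5 arrays B to E, 2050.1, 1761, 2445, 1577 and 1378 in day 20 arrays A to E and 3533, 20401, 5926, 14418 and 5336 in day 60 arrays A to E. Every day 5 and day 20 array was below the lowest control, and day 60 arrays B and D lay within the control range. Fasn was 8.42-fold lower on day 5 (log2 change -3.07, SE 0.50, adjusted p = 1.09e-04) and 12.3-fold lower on day 20 (log2 change -3.62, SE 0.47, adjusted p = 1.06e-05). The day 60 change against control was -1.53 with an adjusted p of 0.106.

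Acly, which makes cytosolic acetyl-CoA from citrate, changed least in this class on day 5. It read 74114, 30604, 23760.4, 19286 and 58061 in control arrays A to E, 13581, 13735, 12765 and 12925 in day 5 arrays B to E, 10337, 12203, 11048, 11904 and 9772 in day 20 arrays A to E and 18986, 35006, 13673, 22768 and 16867 in day 60 arrays A to E. The groups were still separate from control on days 5 and 20. Acly was 2.71-fold lower on day 5 (log2 change -1.44, SE 0.31, adjusted p = 0.00146) and 3.25-fold lower on day 20 (log2 change -1.70, SE 0.29, adjusted p = 2.27e-04). Scd1, the desaturase that makes monounsaturated fatty acids, changed by -3.00 on day 5 and -4.11 on day 20, with means of 13447 on day 5 and 6372 on day 20 against 109510 in control. Elovl6, which lengthens the palmitate chain, changed by -2.57 and -2.93 on the same days. Acaca, the acetyl-CoA carboxylase that commits carbon to fatty acids, changed by -2.44 and -2.10, and its isoenzyme Acacb by -1.59 and -1.38. Me1, malic enzyme, which supplies NADPH, changed by -2.35 and -2.09. The Acacb calls rest partly on control arrays A and E: without both, the day 5 change of Acacb was -0.86 with an adjusted p of 0.0657, and the day 20 change -0.64 with an adjusted p of 0.166. With the Actb ratio in the fit the day 20 change of Acacb was -1.12 with an adjusted p of 0.0578. The day 20 change of Me1 had an adjusted p of 0.0555 without both.

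Upstream sequence was matched for 25 of the 36 genes in the RefSeq promoter table for the build GRCm38.p6. The 250 bases before the start are shown for 4 members whose values are given in every array: Thrsp and Fasn, with the deepest day 5 falls of their class, Adipoq, the marker hormone of fat cells, and Mlxipl, the regulator with the largest day 5 fall. Each reads 5′ to 3′ on the gene's strand and ends at the base before the start. Capitals mark the letters CCAAT or, on the other strand, ATTGG, the box bound by the factor NF-Y, and the palindrome CACGTG, an E-box of the kind that basic helix-loop-helix factors bind.
Fasn: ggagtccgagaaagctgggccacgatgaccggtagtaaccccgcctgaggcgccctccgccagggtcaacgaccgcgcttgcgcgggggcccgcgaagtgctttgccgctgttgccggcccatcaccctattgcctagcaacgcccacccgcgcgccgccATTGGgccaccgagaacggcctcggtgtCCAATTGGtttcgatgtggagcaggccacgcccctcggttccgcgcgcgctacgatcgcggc
Thrsp: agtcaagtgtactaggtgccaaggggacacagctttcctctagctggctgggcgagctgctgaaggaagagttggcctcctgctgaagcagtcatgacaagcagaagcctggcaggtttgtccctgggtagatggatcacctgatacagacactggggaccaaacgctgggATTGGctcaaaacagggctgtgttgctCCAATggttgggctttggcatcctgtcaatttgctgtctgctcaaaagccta
Adipoq: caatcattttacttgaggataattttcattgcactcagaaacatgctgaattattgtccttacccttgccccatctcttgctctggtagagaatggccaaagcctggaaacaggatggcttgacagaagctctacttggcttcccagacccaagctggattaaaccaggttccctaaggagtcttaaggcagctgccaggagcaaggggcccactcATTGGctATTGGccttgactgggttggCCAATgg
Mlxipl: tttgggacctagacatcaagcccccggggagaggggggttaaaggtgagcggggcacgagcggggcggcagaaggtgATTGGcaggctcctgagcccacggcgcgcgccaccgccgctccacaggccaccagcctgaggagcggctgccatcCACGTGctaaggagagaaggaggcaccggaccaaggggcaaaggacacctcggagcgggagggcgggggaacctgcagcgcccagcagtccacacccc
The Fasn stretch is chr11:120824548-120824797 on the minus strand, Thrsp chr7:97417551-97417800 on the minus strand, Adipoq chr16:23146286-23146535 on the plus strand and Mlxipl chr5:135089640-135089889 on the plus strand. Of a gene with several listed starts, the one with the most matches is shown. Fasn held 3 CCAAT boxes, of which 2 overlap in the run CCAATTGG, Thrsp held 2, Adipoq 3 and Mlxipl 1 beside its E-box. Among the 25 matched members 11 held CCAAT on either strand, or 44%, beside 37.5% of 27025 genes with a promoter in the table. CACGTG occurred in 2 of 25 (8%) beside 6.86% of genes. The letters TCACNCCAC, a sterol regulatory element to which SREBP binds, occurred in 2 of 25 (8%), upstream of Acsl1 and of another start of Mlxipl than the one shown, beside 1.23% of genes. TTGCNNAA, a form of the C/EBP site, occurred in 4 (16%) beside 10.8%, the nuclear receptor motif AGGTCA in 5 (20%) beside 15.8%, and TATAAA in 3 (12%) beside 14.3%. A match describes these letters only, and genes with several starts were counted once.

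All 5 tested members of triglyceride assembly fell on day 5 and on day 20, with a median log2 change of -2.27 and -2.05. Pck1, whose enzyme makes glycerol 3-phosphate precursors from pyruvate in fat, read 12235, 6129, 5958, 3754 and 14174 in control arrays A to E, 387, 778, 1269 and 762 in day 5 arrays B to E, 172, 218, 133, 156 and 149 in day 20 arrays A to E and 12.5, 2708, 1048, 3177 and 567 in day 60 arrays A to E. Each of the 5 day 20 arrays was below each day 5 array, and all were below the lowest control. Pck1 was 9.03-fold lower on day 5 (log2 change -3.18, SE 0.68, adjusted p = 0.00125) and 28.8-fold lower on day 20 (log2 change -4.85, SE 0.64, adjusted p = 1.20e-05). It was also 7.98-fold lower on day 60 (log2 change -3.00, SE 0.64, adjusted p = 0.0284), where array A, the one with the highest Actb ratio, had the lowest signal and no array reached the lowest control. On a pseudocount of 1 the adjusted p on day 60 was 0.0787, and with the mean of its probe sets 0.0507.

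Agpat2, the acyltransferase that makes phosphatidic acid, gave 20128, 3913, 3031, 2544 and 18169 in control arrays A to E, 927, 1024, 1000.1 and 1116 in day 5 arrays B to E, 607, 706, 1042, 783 and 716 in day 20 arrays A to E and 691, 3437, 1597, 2507 and 1253 in day 60 arrays A to E. Control arrays A and E stood far above B, C and D, and every array of days 5 and 20 lay under them all. The change was -2.56 on day 5 (SE 0.52, adjusted p = 8.55e-04) and -2.94 on day 20 (SE 0.49, adjusted p = 1.67e-04). Dgat1, one of a pair of enzymes for the last step to triglyceride, read 5363, 2206, 2275, 2191 and 6223 in control arrays A to E, 1242, 1096, 1365 and 1251 in day 5 arrays B to E, 1202, 777, 1630.4, 1114 and 1383 in day 20 arrays A to E and 1789.9, 2489.8, 1851, 2460.3 and 1865 in day 60 arrays A to E. It changed least of the class on day 5 but its arrays were still apart from control on days 5 and 20. The change was -1.34 on day 5 (SE 0.28, adjusted p = 9.77e-04) and -1.39 on day 20 (SE 0.26, adjusted p = 4.87e-04). Dgat2, the other enzyme of that step, fell by 1.89 on day 5, 2.05 on day 20 and 1.19 on day 60 on the log2 scale, the last with an adjusted p of 0.0281. With the mean of the Dgat2 probe sets the day 60 adjusted p was 0.0607. Gpd1, which makes glycerol 3-phosphate from a glycolytic intermediate, changed by -2.27 on day 5 and -1.97 on day 20, and with the mean of its probe sets the day 20 change had an adjusted p of 0.118.

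All 5 tested droplet and lipolysis members fell on day 5 and on day 20. Ces1d, a carboxylesterase that hydrolyses triglyceride in adipocytes, gave 35709, 16951, 14944, 11497 and 38773 in control arrays A to E, 319, 585, 717 and 700.3 in day 5 arrays B to E, 1009, 320.3, 256, 901 and 757 in day 20 arrays A to E and 1772, 14849, 3942, 13841 and 4546 in day 60 arrays A to E. Every day 5 and day 20 array was far below the lowest control, and day 60 arrays B and D lay within the control range. Ces1d was 32.0-fold lower on day 5 (log2 change -5.00, SE 0.53, adjusted p = 1.12e-06) and 31.1-fold lower on day 20 (log2 change -4.96, SE 0.50, adjusted p = 6.42e-07). Its day 60 change did not pass (log2 change -1.83, SE 0.50, adjusted p = 0.0783).

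Cidec, a droplet protein that helps small droplets merge into a large one, read 4741, 1965, 2207, 1515 and 7056 in control arrays A to E, 308, 629, 722 and 587 in day 5 arrays B to E, 93.0, 166, 134, 205 and 294 in day 20 arrays A to E and 345, 1523, 649, 2447 and 529.6 in day 60 arrays A to E. All 5 day 20 arrays were below all 4 day 5 arrays, which were below all controls. The change was -2.26 on day 5 (SE 0.46, adjusted p = 9.25e-04) and -3.50 on day 20 (SE 0.44, adjusted p = 6.69e-06). Pnpla2, adipose triglyceride lipase, which takes the first acyl chain off stored triglyceride, read 5589.8, 2399.7, 2868, 2887 and 6883 in control arrays A to E, 1482, 1538, 1595 and 1537 in day 5 arrays B to E, 1861, 1394, 1372, 1649 and 1557 in day 20 arrays A to E and 1233, 1836, 1761, 2220.4 and 1489.9 in day 60 arrays A to E. The arrays of days 5, 20 and 60 overlapped with each other, and none of them reached the lowest control. The change was -1.25 on day 5 (SE 0.24, adjusted p = 5.61e-04), -1.23 on day 20 (SE 0.23, adjusted p = 4.34e-04) and -1.13 on day 60 (SE 0.23, adjusted p = 0.0215). In a limma fit over all probe sets, a second, dimmer one of Pnpla2 gave -0.42, -0.21 and -0.16 on these days. Its adjusted p were 0.353, 0.658 and 0.851. With the mean of the Pnpla2 probe sets the day 60 adjusted p was 0.216. Lipe, hormone-sensitive lipase, fell by 1.61, 2.09 and 1.46 on days 5, 20 and 60, the last with an adjusted p of 0.0159. Plin4, a perilipin of adipocyte droplets, changed by -1.84 on day 5 and -2.13 on day 20.

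Uptake and transport had 2 members lower, 1 higher and 3 not called among 6 tested on day 5, and the same numbers on day 20. Slc2a4, the insulin-responsive glucose transporter GLUT4, read 5603, 2297, 3668, 3648 and 4756 in control arrays A to E, 893, 1329.7, 1689.5 and 1772 in day 5 arrays B to E, 2056, 1261, 1740.2, 1978 and 2329 in day 20 arrays A to E and 3092, 1749, 4312, 3288 and 2156 in day 60 arrays A to E. All day 5 arrays were under the lowest control, while day 20 array E slightly exceeded it. On day 60 Slc2a4 was lowest in B and highest in C, as was the skeletal muscle sum (60319 and 982163). In control Slc2a4 was lowest in B but the muscle sum in C (464241). The part of muscle was not tested. Slc2a4 changed by -1.41 on day 5 (SE 0.27, adjusted p = 4.81e-04) and -1.02 on day 20 (SE 0.25, adjusted p = 0.00493). The day 20 call of Slc2a4 was lost without control arrays A and E (adjusted p = 0.0689) and with the mean of its probe sets (adjusted p = 0.209).

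Lpl, lipoprotein lipase, was among the brightest members. It read 102805, 90183, 68929, 83197 and 135934 in control arrays A to E, 51655, 45254, 48764 and 51236 in day 5 arrays B to E, 63932, 60895, 67684, 65962 and 71280.3 in day 20 arrays A to E and 64717, 70984, 80235, 83125 and 74075 in day 60 arrays A to E. Day 5 arrays were all under control, and day 20 arrays were above day 5 in every array. Lpl was 1.90-fold lower on day 5 (SE of the log2 change 0.15, adjusted p = 8.02e-05) and 1.42-fold lower on day 20 (SE 0.14, adjusted p = 0.00892). Without control arrays A and E the day 20 change of Lpl was -0.29 with an adjusted p of 0.103. In the fit over all probe sets a second, dimmer one of Lpl fell more. It gave -1.26 on day 5 and -1.025 on day 20 with adjusted p of 0.00327 and 0.0111. Its change between day 20 and day 5 was 0.24 with an adjusted p of 0.730.

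Scarb1, the scavenger receptor that takes up cholesteryl ester from high-density lipoprotein, was the single member that rose. It read 3810.2, 4614, 5104, 4013 and 4839 in control arrays A to E, 7471, 7431, 5855 and 6741 in day 5 arrays B to E, 7999, 6594, 5049, 8517 and 7120.2 in day 20 arrays A to E and 2188, 2746, 2187, 2933 and 2816 in day 60 arrays A to E. All 4 day 5 arrays were above all controls, 4 of the 5 day 20 arrays were too, and all 5 day 60 arrays were below. Scarb1 was 1.53-fold higher on day 5 (log2 change 0.61, SE 0.15, adjusted p = 0.00388), 1.55-fold higher on day 20 (log2 change 0.63, SE 0.14, adjusted p = 0.00219) and 1.71-fold lower on day 60 (log2 change -0.78, SE 0.14, adjusted p = 0.0159). In the fit over all probe sets, a second one for Scarb1 gave 0.50 and 0.54 on days 5 and 20 with adjusted p of 0.00462 and 0.00185. The third gave 0.25 and 0.20 and was not called on these days. On day 60 the second gave -0.64 with an adjusted p of 0.0174, and the third -0.20 with 0.506. The endothelial markers, of which 7 of 8 were called higher on day 5 and 8 of 8 on day 20, moved the same way as Scarb1 on those days. On day 60 none of the 8 was called against control, with a median log2 change of 0.07, while Scarb1 was lower. Of 7 tested macrophage markers 5 were called higher on day 5, and 2 higher and 1 lower on day 20. The part of these markers in the change of Scarb1 was not tested.

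Trarg1, a regulator of GLUT4 trafficking, had the smallest day 5 change of the class. It read 1549, 860.0, 1347, 1332 and 2247 in control arrays A to E, 744, 1575, 1329 and 1341 in day 5 arrays B to E, 1159, 1584, 1501, 1091 and 1339 in day 20 arrays A to E and 401, 1090.4, 444, 644 and 586 in day 60 arrays A to E. Days 5 and 20 overlapped with control and day 60 was low in 4 of 5 arrays. The changes of -0.20 on day 5 and -0.08 on day 20 did not pass (adjusted p 0.581 and 0.833). On day 60 Trarg1 fell (-1.11, SE 0.25, adjusted p = 0.0367).

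Fabp4, the abundant fatty acid binding protein of fat cells, had means of 94673 on day 5, 102900 on day 20 and 95359 on day 60 against 139510 in control, and its changes of -0.51, -0.40 and -0.66 did not pass. Cd36, a fatty acid transporter also present on endothelium and macrophages, changed by -0.33, -0.79 and -1.08, none of them called. In the fit over all probe sets both genes had another probe set called lower: a dimmer one of Cd36 gave -0.99 on day 5 and -1.08 on day 20 with adjusted p of 0.0175 and 0.00839, and the third, about as bright as the one used, gave -0.87 on day 20 with an adjusted p of 0.0207. A dimmer one of Fabp4 gave -1.32 and -1.20 with adjusted p of 0.0285 and 0.0396. Aqp7, the glycerol channel, had signals of 392, 169, 310.3, 208 and 405 in controls A to E, 10.8, 49.6, 134 and 68.6 in day 5 arrays B to E, 183, 76.0, 66.4, 167 and 118 in day 20 arrays and 234, 155, 47.0, 135 and 79.6 in day 60 arrays, and was too dim to test.

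Of the 4 tested adipokines, 3 fell on days 5 and 20. Adipoq, which encodes adiponectin, gave 33133, 28479.6, 22682, 21871 and 61847 in control arrays A to E, 2745, 4819.8, 4561 and 3603 in day 5 arrays B to E, 1387, 1178, 519.9, 1509 and 1514 in day 20 arrays A to E and 633, 38909.8, 9055, 17641 and 4094 in day 60 arrays A to E. The day 20 arrays lay below all day 5 arrays, those lay below all controls, and the day 60 arrays ranged from the day 20 level to the control level. Adipoq was 7.91-fold lower on day 5 (log2 change -2.98, SE 0.73, adjusted p = 0.00376) and 24.9-fold lower on day 20 (log2 change -4.64, SE 0.69, adjusted p = 4.62e-05). On day 60 its change did not pass (log2 change -2.11, SE 0.69, adjusted p = 0.125).

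Retn, which encodes resistin, read 19827, 12421, 15738, 13780.2 and 44894 in control arrays A to E, 1636, 1964, 3405 and 2586 in day 5 arrays B to E, 1254, 729, 851, 1206 and 1044 in day 20 arrays A to E and 1348, 15769, 4865, 11778 and 3879 in day 60 arrays A to E. Its order of groups was that of Adipoq, with day 20 lowest. Retn was 7.88-fold lower on day 5 (log2 change -2.98, SE 0.51, adjusted p = 1.66e-04) and 17.3-fold lower on day 20 (log2 change -4.11, SE 0.48, adjusted p = 2.96e-06). Lep, the gene of leptin, averaged 291 on day 5, 86.9 on day 20 and 602 on day 60 against 1267 in control, and fell by 1.78 on day 5 and 2.83 on day 20. Lep stood near the dim end of the scale on day 20, so its fold is understated.

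Angptl4, a secreted inhibitor of lipoprotein lipase that many cell types make, was called on day 60 and not before. It read 4669.5, 4053, 3793, 3698 and 7157 in control arrays A to E, 4853, 4923, 3249.7 and 3717 in day 5 arrays B to E, 3243, 5551, 3966, 3074 and 2829.7 in day 20 arrays A to E and 1199, 3699, 1162, 1406 and 1906 in day 60 arrays A to E. Days 5 and 20 overlapped with control, and 4 of the 5 day 60 arrays were below every control. The changes of -0.13 on day 5 and -0.32 on day 20 did not pass (adjusted p 0.753 and 0.399). On day 60 Angptl4 fell (-1.36, SE 0.27, adjusted p = 0.0197).

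Of the 4 regulators, 3 fell on days 5 and 20 and Pparg did not pass. Mlxipl, the glucose-responsive factor ChREBP, read 5885, 2039, 3072, 3749 and 5177 in control arrays A to E, 336, 849, 1313 and 1543 in day 5 arrays B to E, 1573, 933, 1211, 1195 and 1477 in day 20 arrays A to E and 2467, 1377, 6028, 3324 and 1788 in day 60 arrays A to E. Days 5 and 20 lay under all controls, and day 60 array C was the highest of the 19 arrays. On day 60 the skeletal muscle sum was likewise highest in C (982163) and lowest in B (60319). In control Mlxipl was lowest in B but the muscle sum in C (464241). The part of muscle was not tested. The change of Mlxipl was -1.95 on day 5 (SE 0.40, adjusted p = 8.59e-04) and -1.50 on day 20 (SE 0.37, adjusted p = 0.00519). Without control arrays A and E the day 20 change of Mlxipl was -1.13 with an adjusted p of 0.0683.

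Cebpa, which encodes C/EBP alpha, read 7647, 3391, 4178, 3722 and 9145 in control arrays A to E, 1876, 2425, 2834 and 2283 in day 5 arrays B to E, 1275, 2087, 1975, 1038 and 1091 in day 20 arrays A to E and 2142, 4018, 1223, 5009 and 3316 in day 60 arrays A to E. All arrays of days 5 and 20 were under the lowest control. The change was -1.12 on day 5 (SE 0.35, adjusted p = 0.0187) and -1.78 on day 20 (SE 0.33, adjusted p = 4.37e-04). The day 5 call of Cebpa was lost without control array A (adjusted p = 0.0512), without control array E (adjusted p = 0.0545), without day 5 array B (adjusted p = 0.0574), without control arrays A and E together (adjusted p = 0.181) and with the Actb ratio in the fit (adjusted p = 0.0609). Srebf1, the gene of SREBP-1, was 1.99-fold lower on day 5 and 1.68-fold lower on day 20, with the smallest standard errors of the class, 0.14 and 0.13 on the log2 scale.

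Pparg, the factor that adipocytes need to form and persist, read 1417, 1006, 696, 666 and 1597 in control arrays A to E, 633, 701, 939.6 and 949 in day 5 arrays B to E, 1019, 1335, 801, 968 and 1347 in day 20 arrays A to E and 210.1, 474, 259, 491 and 248 in day 60 arrays A to E. Days 5 and 20 overlapped with control, and all day 60 arrays were below every array of the other groups. Pparg changed by -0.32 on day 5 (SE 0.26, adjusted p = 0.356) and 0.07 on day 20 (SE 0.24, adjusted p = 0.848). On day 60 it was 2.66-fold lower (log2 change -1.41, SE 0.24, adjusted p = 0.0111). It was read by 1 probe set only.

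**Figure D3:**
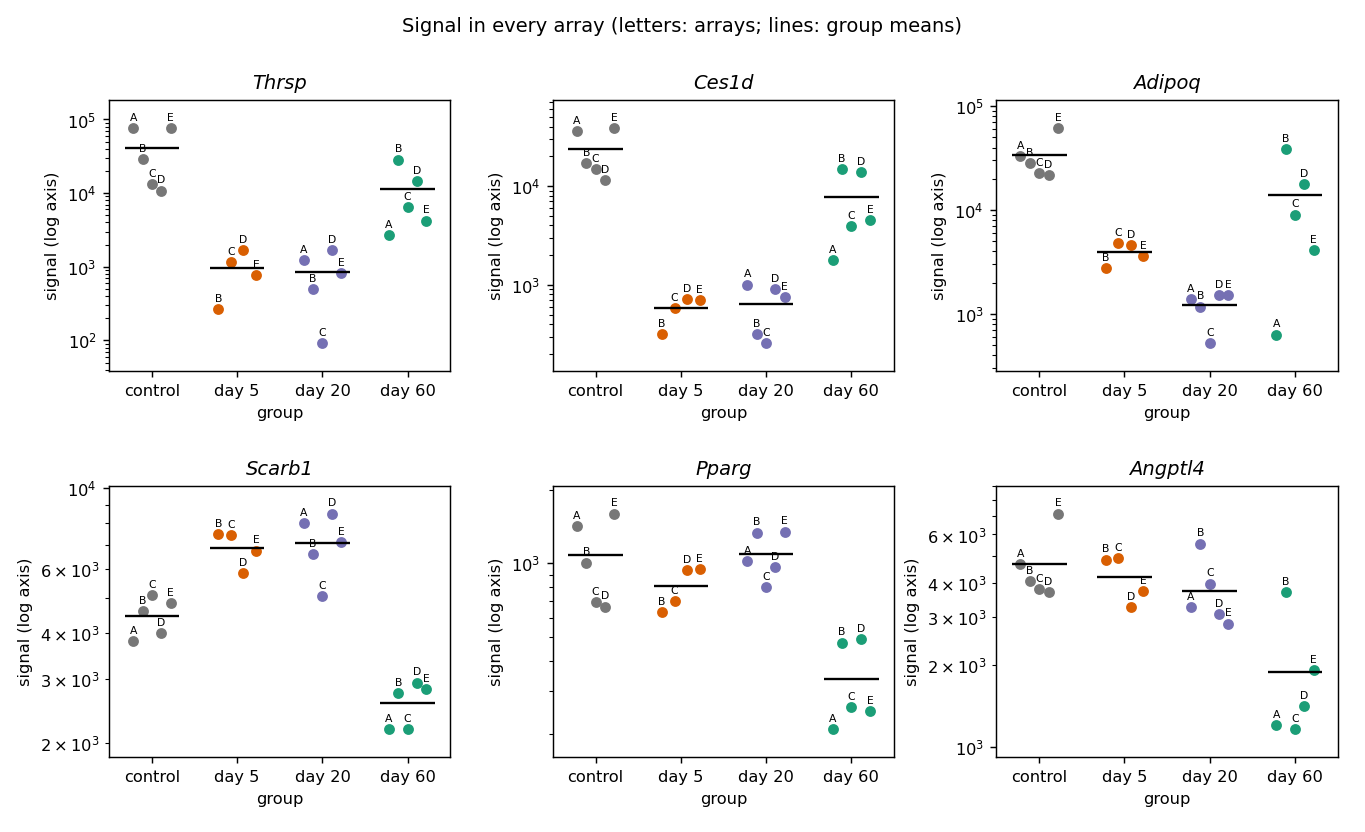
Signal of 6 members in every array on log axes, with group means as lines and array letters beside the points. Thrsp, Ces1d and Adipoq are low on days 5 and 20 and spread widely on day 60, whereas Scarb1, Pparg and Angptl4 have their lowest group mean on day 60.

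Between day 20 and day 5 none of the 32 members was called by limma, beside 2.25% of all tested genes called lower and 3.05% higher. At an unadjusted p under 0.05 there were 6 lower (Scd1, Pck1, Cidec, Adipoq, Lep and Retn) and 1 higher (Lpl), beside 9.59% lower and 10.3% higher of all tested genes at that threshold. The changes of these genes were -1.11, -1.67, -1.24, -1.66, -1.05, -1.13 and 0.42, with adjusted p between 0.103 and 0.213. Other settings called between 0 and 7 members, the 7 in a fit of only the arrays of days 20 and 5. The members' median log2 change was -0.17, against 0.01 over all tested genes.

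Between day 60 and day 20 the members split. Of 32, 16 rose and 4 fell, beside 11.0% of all tested genes called higher and 11.2% lower, with a median of 0.81 against 0.03. Fatty acid synthesis had 5 of 8 members higher, triglyceride assembly 3 of 5, droplet and lipolysis 3 of 5, adipokines 3 of 4 and regulators 2 of 4. Thrsp was 10.6-fold higher on day 60 than on day 20 (log2 change 3.40, SE 0.71, adjusted p = 0.00173), Ces1d 8.76-fold (log2 change 3.13, SE 0.50, adjusted p = 1.69e-04) and Scd1 6.97-fold (log2 change 2.80, SE 0.38, adjusted p = 3.25e-05). Adipoq was 5.77-fold higher (log2 change 2.53, SE 0.69, adjusted p = 0.0117) and Retn 5.08-fold (log2 change 2.35, SE 0.48, adjusted p = 0.00147). Of these 5 genes all but Adipoq had every day 60 array above every day 20 array, and 62.0% of all genes called in this comparison were apart.

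The 4 members lower on day 60 than on day 20 were Scarb1, Trarg1, Angptl4 and Pparg. Scarb1 changed by -1.41 (SE 0.14, adjusted p = 8.85e-07) and Pparg by -1.48 (SE 0.24, adjusted p = 2.02e-04). Trarg1 changed by -1.03 (adjusted p = 0.00507) and Angptl4 by -1.05 (adjusted p = 0.00769). Endothelial markers were lower in the same comparison, with 7 of 8 called, and mammary epithelial markers higher, with 7 of 10 called. Epidermal markers were also higher, with 5 of 8 called, as were 2 of 6 tested sebaceous gland markers, and of 9 preadipocyte and fibroblast markers 3 were higher and 3 lower. Of 9 tested further white adipocyte markers only 2 were called higher and 1 lower. Of 7 tested macrophage markers 1 was higher and 1 lower, and none of 7 brown fat and 8 skeletal muscle markers was called. Their part was not tested. With the Actb ratio in the fit, which differed most between these groups, 7 members were called higher and 4 lower. Of the 20 calls, those of Acly, Cebpa, Dgat1, Dgat2, Pck1, Plin4 and Srebf1 were lost without some single array, with adjusted p up to 0.141.

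Against control, the 8 members called lower on day 60 were Pck1, Dgat2, Lipe, Pnpla2, Scarb1, Trarg1, Angptl4 and Pparg, with log2 changes between -3.00 and -0.78. None of the 8 fatty acid synthesis members was among them by limma, although their changes lay between -1.91 and -0.72 with adjusted p between 0.0694 and 0.380 and 7 of the 8 had an unadjusted p under 0.05. The count of 8 turned on single arrays: it was 2 without control array A, 1 without control array E, 0 without both, 4 without day 60 array A, 4 without day 60 array E, 12 without day 60 array D and 15 without day 60 array B. It was also 0 in a fit of only the arrays of day 60 and control. Of the 8 genes, 7 lost the call without some single array, with adjusted p up to 0.105, and Pparg did not.

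The arrays of a group differed most in control and on day 60. Control arrays A and E held the highest values of their group, the first 2 places in 31 of 33 members. On day 60 arrays B and D took the first 2 places in 21 of 33 members, and array A was the lowest in 19. The mean log2(signal + 100) of the fatty acid synthesis members was 14.1 ± 1.05 in the 5 controls (SD), 11.4 ± 0.26 in the 4 day 5 arrays, 11.2 ± 0.30 in the 5 day 20 arrays and 12.8 ± 0.72 in the 5 day 60 arrays. The mammary epithelial sum was likewise highest in day 60 arrays B (51832) and D (37965) and lowest in A (9617), while in control it ranged only over 45989 to 56565 and was 50789 and 53747 in arrays A and E. The sum of the further white adipocyte markers was highest among controls in E (258088) and A (224375). On day 60 that sum was 211132 in B and 211676 in C, but 156287 in D. Most of it was Car3, at 186870 in B, 200030 in C and 140090 in D. Acvr1c, Aoc3, Mrap, Adig, Hcar1, Slc7a10 and Rbp4 had their first 2 places on day 60 in B and D, while Lgals12 and Retsat did not. The skeletal muscle sum was 60319 in day 60 array B, against 371931 to 982163 in the other day 60 arrays. The part of these sums in the spread was not tested. With control arrays A and E left out, the counts were 24 lower and 1 higher on day 5 and 21 lower and 1 higher on day 20, a setting chosen after the data were seen.

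Classes were also set against each other within arrays. The mean of the synthesis members minus that of the droplet and lipolysis members was 1.56 ± 0.55 log2 units in the 5 controls (SD), 1.26 ± 0.17 in the 4 day 5 arrays, 1.43 ± 0.26 in the 5 day 20 arrays and 1.64 ± 0.35 in the 5 day 60 arrays. The synthesis mean minus that of uptake and transport was 0.26 ± 0.78, -1.96 ± 0.18, -2.29 ± 0.23 and -0.32 ± 0.48 in the same order. The ranges of days 5 and 20 in that second difference did not overlap with those of control and day 60. These differences are descriptions with no test. They rest on the probe set of highest mean signal of each gene. On day 5 a dimmer one each of Lpl (-1.26), Fabp4 (-1.32) and Cd36 (-0.99) fell more than the one used. Other dimmer ones of Fabp4 did not, with -0.475 and -0.504 beside -0.513 for the one used.

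**Figure D4:**
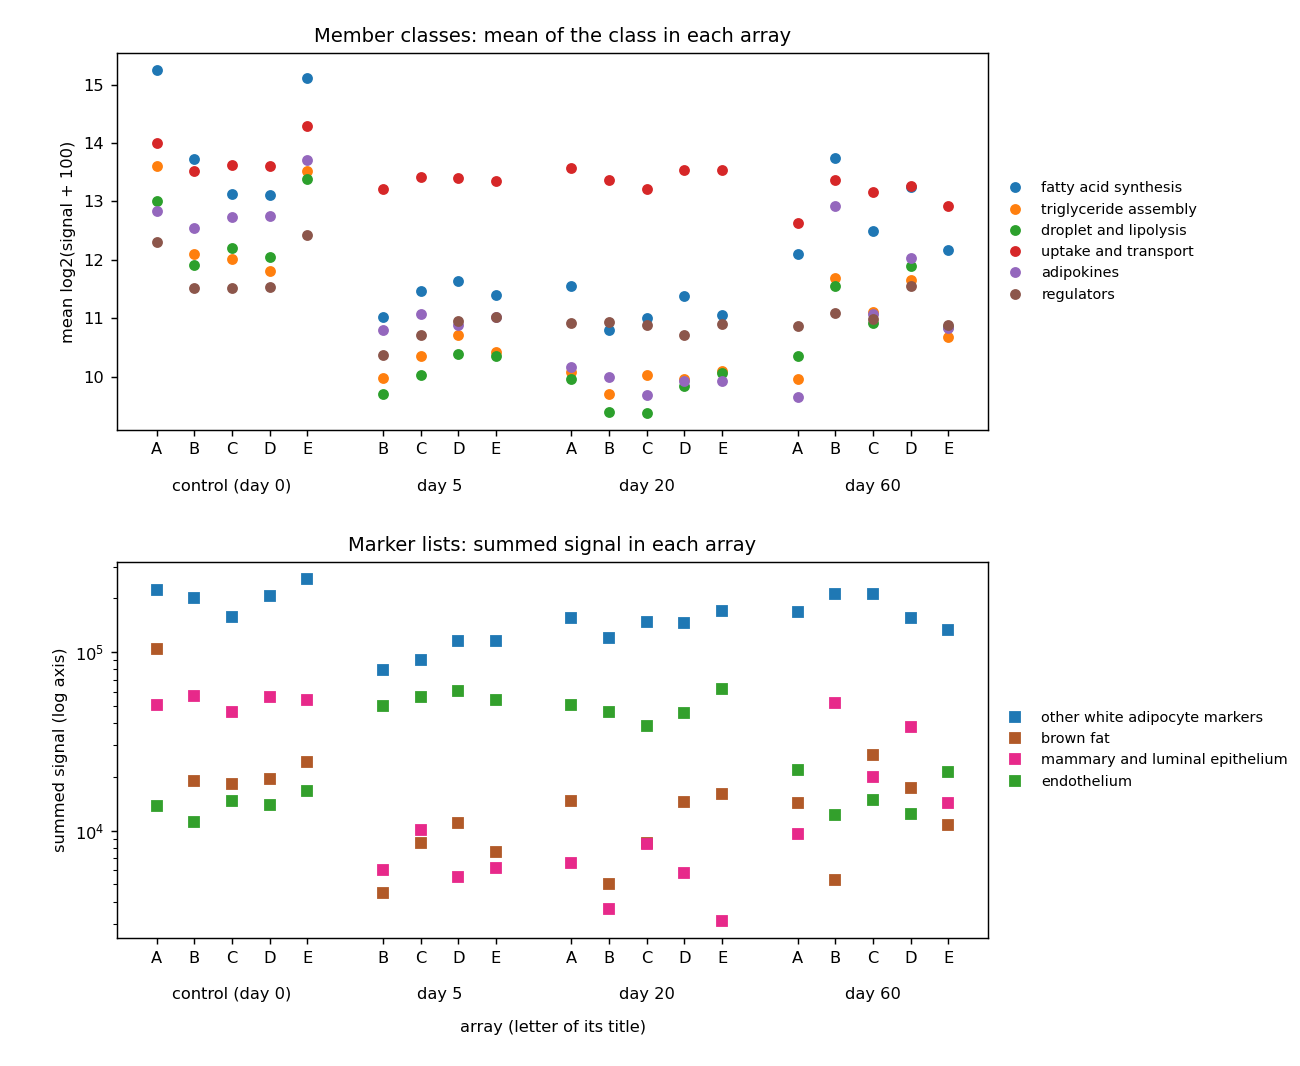
Top, mean log2(signal + 100) of the members of each role in each array; bottom, summed signal of 4 marker lists in each array on a log axis. The uptake and transport mean lies between 12.6 and 14.3 in every array, with 13.2 to 13.4 on day 5 below 13.5 to 14.3 in control. The other class means drop further on days 5 and 20, when the endothelial sum is high and the mammary epithelial sum low.

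Of 18 tested further genes of fatty acid and triglyceride synthesis, 12 fell on day 5 and 14 on day 20, with none higher. On day 60 limma called 0, with 10 lower and 1 higher at an unadjusted p under 0.05. Acss2, which makes acetyl-CoA from acetate, changed most (-2.95 on day 5 and -2.58 on day 20), followed by Mogat1, a monoacylglycerol acyltransferase (-2.22 and -2.20). Of 12 tested genes of fatty acid oxidation, 10 fell on day 5 and 10 on day 20, with none higher. Pdk4, which restrains glucose oxidation, changed by -1.52 on day 5 with an adjusted p of 0.0337, and Ehhadh, a peroxisomal enzyme of beta oxidation, by -1.50 with 0.00312.

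Of 18 tested further droplet, lipolysis and uptake genes, 9 fell and 2 rose on day 5, and 7 fell and 1 rose on day 20. G0s2, an inhibitor of adipose triglyceride lipase, changed by -2.27 on day 5 (SE 0.32, adjusted p = 2.69e-05). Gpihbp1, the capillary protein that holds lipoprotein lipase on the endothelium, was 3.29-fold higher on day 5 (log2 change 1.72, SE 0.29, adjusted p = 1.75e-04) and 3.82-fold higher on day 20 (log2 change 1.94, SE 0.28, adjusted p = 3.19e-05). Its mean was 10009 on day 5 and 11685 on day 20 against 3159.7 in control, and on day 60 it was 5.48-fold lower than on day 20 (log2 change -2.45, SE 0.28, adjusted p = 3.79e-06). Hilpda, a droplet protein induced by hypoxia, rose by 0.46 on day 5 with an adjusted p of 0.0277. On day 60 the only call of this list against control was Prkar2b, a regulatory subunit of protein kinase A (-1.65, adjusted p = 0.0176).

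Of 20 tested further regulators and insulin signalling genes, 8 fell on day 5, and 9 fell and 1 rose on day 20. Irs1, the insulin receptor substrate, changed by -1.76 on day 5 (SE 0.21, adjusted p = 3.46e-06) and -0.88 on day 20. Klf15, a factor of late adipocyte differentiation, changed by -1.49 on day 5 (adjusted p = 0.0324) and -2.02 on day 20. Ebf1, a factor of early adipocyte commitment that other cells also use, was the one that rose on day 20 (log2 change 1.01, SE 0.16, adjusted p = 9.35e-05). Ebf1 and Zfp423 were the 2 of this list that fell between day 60 and day 20, by 0.93 and 0.97. Of 13 tested genes of cholesterol synthesis and uptake, 5 fell on day 5 and 5 on day 20, led on day 5 by Sc5d at -1.32 and Fdft1, squalene synthase, at -1.06. Between day 60 and day 20, 8 of these 13 rose.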

How the data were processed

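Total RNA of mouse flank was hybridised to Affymetrix Mouse Genome 430 2.0 arrays. Per the labels, the authors deposited MAS5 signal intensity values scaled to 1500, and the submitters' processing notes name MAS5 and GCOS 1.3. The intensity values are linear, and the arrays were not normalized further against each other by a stated step.

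Of 45101 probe sets, 34958 were annotated to 1 symbol, 932 to several and 9211 to none, and 34754 of the single symbols were matched to RefSeq by gene ID. Each gene was read from the probe set with the highest mean signal over 19 arrays. Values were tested as log2(signal + 100) with limma 3.58.1 in R 4.3.3, with all 4 groups in 1 fit, a minimum mean signal of 300 and Benjamini-Hochberg adjustment over 13595 genes. A call is an adjusted p under 0.05. The members and lists were chosen with earlier results of these data known. All members are named. Values in every array are given for the 2 members of each role class with the largest absolute day 5 change, the one with the smallest, and any called against the direction of its class. Of each related list the 2 largest day 5 changes and calls against the list's direction are named. No pair of arrays was identical. The RNA extraction is not given in the sources used here.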

Additional observations from a re-analysis of the deposited data

Results flagged for a closer look

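A test for a single array far from the rest of its group was applied to 128 groups of a member's values, and chance alone marks about 1 in 20 groups. It marked 2 arrays. Lipe read 152.59 in day 20 array D, against a nearest value of 388.82 in that group, a gap of 0.78 of the group's range. Adipoq read 519.9 in day 20 array C, against a nearest value of 1177.7, a gap of 0.756 of the range.

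The array titled as day 5 and named as control at its source entered no comparison. Scarb1 read 7758.5 there, above the highest control at 5104, and Vegfa read 11111, above the highest control at 467. The endothelial sum was 55427 and the mammary epithelial sum 8524 in that array, both within the day 5 range and outside the control range. Other values went the other way. The epidermal sum of 47966 and the sebaceous gland sum of 25773 lay within the control range and above the day 5 range. So did the member Elovl6 at 6933, against at most 2642 on day 5.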

How the results depend on the processing

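The counts of members called against control on days 5 and 20 stayed within 1.5 times of 27 in all 34 alternative settings each. For day 60 against control, where 8 were called, 0 were called with only the compared groups, 5 with the mean of all probe sets, 0 with the unassigned array as control, 0 without both control arrays A and E, and 1 to 15 when 1 array was left out. For day 20 against day 5, where 0 were called (7 at an unadjusted p under 0.05), 1 was called after quantile normalization, 3 with array weights, 7 with only the compared groups, 1 with the unassigned array as day 5, 1 without both control arrays A and E, and 0 to 2 when 1 array was left out. For day 60 against day 20, where 20 were called, 11 were called with the Actb ratio in the fit, 13 with the unassigned array as control, and 14 to 20 when 1 array was left out. The setting with the unassigned array as control places an array with a Vegfa signal of 11111 among controls of at most 467. The cause of these differences was not tested. No direction of a called result turned.

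With the array letter as a replicate block the counts were 27 on day 5, 27 on day 20 and 6 on day 60 against control, 0 for day 20 against day 5 and 18 for day 60 against day 20. The letters did not pair the arrays: over 27 same-letter pairs the correlation of deviations ran between -0.275 and 0.348 with a median of 0.024, 11 pairs were over 0.1, and 3 of 19 arrays correlated best with their own letter. Dim members are limited by the added 100 signal units.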
